A study of Mus musculus with 2 samples.

Results

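Il24 and the chains of its receptors, Il20ra, Il20rb and Il22ra1, were followed as 4 gene symbols among the 55450 gene identifiers of 2 single-cell libraries of EMT6 tumors. EMT6 cells come from a mammary carcinoma of BALB/c mice, and 200000 of them were injected under the skin of immunocompetent animals of that strain. Both groups received LLY-283, a PRMT5 inhibitor, at 50 mg/kg for 3 days on and 4 days off, and Olaparib, a PARP inhibitor, at 50 mg/kg daily. Combo mice were in addition given an antibody to PD-1 (200 µg, once in 3 days), and Olaparib + LLY-283 mice were not. Each library, called a pool here, held tumors of 3 mice combined into 1 sample, chosen free of necrosis and ulcers. The study names female mice and gives their age at purchase, and their age at collection is not given in the sources used here. With 1 library per group, effects of treatment, of the mice and of the library preparation cannot be told apart, and no test between groups was possible. Il24 was selected on its UMI counts in the tumor cells of these libraries, and the receptor chains were added by name, so their levels are a description.

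IL-24 is a secreted cytokine of the IL-10 superfamily, and it forms a subfamily with IL-19 and IL-20. It signals through a chain pair, IL-20RA with IL-20RB or IL-22RA1 with IL-20RB, to JAK kinases and STAT3. The receptors are known from epithelia such as the epidermis, and the cytokine is known from wounded skin, psoriasis and tumors. In mice the gene lies in a row with Il20, Il19 and Il10.

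Il24 (ENSMUSG00000026420) occupied chr1:130882074-130887454 on the minus strand of mm10 (GENCODE M21, 4 transcripts). Il20ra (ENSMUSG00000020007) was at chr10:19712570-19760053 on the plus strand and overlapped 1 other gene, Gm33332, so that reads of the overlap may belong to either. Il20rb (ENSMUSG00000044244) was at chr9:100457719-100486788 on the minus strand, and Il22ra1 (ENSMUSG00000037157) at chr4:135728172-135752140 on the plus strand. All 4 were protein-coding, and the annotation placed no other gene over Il24, Il20rb or Il22ra1.

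The promoters of the receptor chains are shown, and the promoter set used here held none for Il24. Whether these sequences bear on the few UMIs of the chains, given further on, was not tested. Each sequence runs 5′ to 3′ along the strand of its gene, from 250 bases before to 50 bases after the RefSeq start (GRCm38.p6). Capitals mark the letters of the AP-1 motif TGANTCA, which reads the same on both strands. The STAT motif TTCNNNGAA was also searched and was in none of the 3.
Il20ra, chr10:19712337-19712636, plus strand: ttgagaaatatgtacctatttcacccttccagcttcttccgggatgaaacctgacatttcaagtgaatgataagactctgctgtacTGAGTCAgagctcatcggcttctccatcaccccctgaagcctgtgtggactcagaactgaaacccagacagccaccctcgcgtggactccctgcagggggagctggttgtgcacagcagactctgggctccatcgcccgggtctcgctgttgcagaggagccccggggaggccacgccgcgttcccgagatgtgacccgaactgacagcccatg
Il20rb, chr9:100486424-100486723, minus strand: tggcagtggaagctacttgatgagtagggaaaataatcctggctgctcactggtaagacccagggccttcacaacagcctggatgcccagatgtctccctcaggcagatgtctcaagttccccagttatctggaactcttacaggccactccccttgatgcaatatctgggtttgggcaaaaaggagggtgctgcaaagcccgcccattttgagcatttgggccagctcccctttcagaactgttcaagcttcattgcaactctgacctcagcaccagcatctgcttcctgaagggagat
Il22ra1, chr4:135727909-135728208, plus strand: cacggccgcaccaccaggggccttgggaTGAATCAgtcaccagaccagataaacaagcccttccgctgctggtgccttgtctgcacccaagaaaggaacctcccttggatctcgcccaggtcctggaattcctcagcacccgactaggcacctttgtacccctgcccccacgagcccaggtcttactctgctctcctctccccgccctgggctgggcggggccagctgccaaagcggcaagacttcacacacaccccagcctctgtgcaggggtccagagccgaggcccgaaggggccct
The AP-1 letters began at position -164 in Il20ra and at position -222 in Il22ra1, counted from the RefSeq start as 0, and they were absent from this window of Il20rb. Of 32851 mouse promoters of this length, 7.81% held TGANTCA and 8.30% held TTCNNNGAA. The Il20rb window had 1 CpG, against 13 in Il20ra and 11 in Il22ra1. Unlike the other windows, that of Il20rb lies wholly inside the GENCODE gene, whose 5′ end on the minus strand is at 100486788. The RefSeq start used is thus downstream of the annotated start, and the sequence before the annotated start was not searched.

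The Olaparib + LLY-283 pool held 16115 cells and 147214934 UMIs (unique molecular identifiers, each marking 1 captured transcript), and the Combo pool 7542 cells and 162522700 UMIs. After filters and doublet calls, 13665 and 5909 cells were clustered, and 39 barcodes occurred in both libraries. The filters on genes and mitochondrial UMIs removed 86 of the 16115 cells of the first library and 1586 of the 7542 of the second. Doublet calls then removed 14.7% of the filtered cells of the first library and 0.789% of the second. Clusters rich in the keratins Krt8 and Krt18 and without leading markers of another class were called tumor-like, and they held 9349 and 2217 cells. The label was checked against 5 markers. Krt8 was at 806 and 811 UMIs per 1000000 UMIs of these cells (CPM) in the Olaparib + LLY-283 and Combo pools, and the epithelial marker Epcam at 3.12 and 2.86. All 5 markers were detected, but at most 2 of them were over 2-fold higher in any tumor-like cluster than in other cells, so the name rests on the keratins. The summed CPM of 10 fibroblast markers was also high in them, at 2066 and 2030. Most of this sum was the collagen chains Col1a2, at 1511 and 1461 CPM, and Col3a1, at 406 and 361. Dcn was at 66.3 and 134 CPM, while Col5a2, Thy1, Fgf7, Lum and Dpt were each at 3.30 CPM or less. The largest tumor-like clusters were 1 and 3 in the Olaparib + LLY-283 pool and 10 in Combo. The median depth of all tumor-like cells was 9090 UMIs per cell in the Olaparib + LLY-283 pool and 51317 in Combo. Shares of cells are therefore also given at equal depth, with a fixed number of UMIs drawn from every cell. Brackets hold exact 95% intervals of the counting error, and the spread between mice is not in them. Intervals of CPM and of ratios treat every UMI as independent, so they are too narrow where the UMIs of a gene clump in few cells.

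Most Il24 UMIs were in tumor-like cells, and the level there was higher in the Combo pool. In tumor-like cells of the Olaparib + LLY-283 pool 309 UMIs of Il24 were counted, or 3.01 CPM [2.68 to 3.36]. Those of the Combo pool held 3036 UMIs, or 25.5 CPM [24.6 to 26.4]. The ratio of Combo to Olaparib + LLY-283 was 8.49 [7.55 to 9.58], and the intervals of the 2 libraries lay far apart. Il24 was 1 of 13459 genes that reached 100 UMIs over both pools, and among them it ranked 10 from the highest. Over these genes the median log2 ratio was 0.09, and 6.23% were over 1.5-fold higher in Combo. As Il24 was selected on its UMI counts in these same tumor cells, its ratio and rank are a description and no test.

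A UMI of Il24 was carried by 201 of 9349 tumor-like cells in the Olaparib + LLY-283 pool (2.15% [1.87 to 2.46]). In the Combo pool 583 of 2217 carried one (26.3% [24.5 to 28.2]). At 5000 UMIs per cell, which 7711 and 2143 cells reached, the shares were 1.18% [0.953 to 1.45] and 7.80% [6.70 to 9.02]. Equal depth thus narrowed the gap between the shares, and the intervals stayed apart. Macrophage-like cells, taken as a class that should hold little of a tumor cell transcript, had unthinned shares of 0.104% and 3.38%, at median depths of 1921 and 10677 UMIs. At 1000 UMIs per cell the Combo share was 2.14% [1.58 to 2.84] in tumor-like and 0.402% [0.0815 to 1.18] in macrophage-like cells, with separate intervals. In the Olaparib + LLY-283 pool it was 0.241% [0.152 to 0.364] against 0.0784% [0.000259 to 0.623], the latter from 1 UMI. These overlapped, so a difference in the share from this background was not detectable at 1000 UMIs per cell. That depth leaves out most UMIs of tumor-like cells. Over all UMIs of that pool, macrophage-like cells held 1 Il24 UMI of 2141444, and tumor-like cells 309 of 102812789.

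Il24 UMIs were concentrated in few cells. In the Olaparib + LLY-283 pool the 1% of tumor-like cells with the most Il24 UMIs, 94 cells, held 65.4% of them. Its top 10% held 100%, as 201 cells carried any, and the highest cell had 14. In the Combo pool the top 1%, 23 cells, held 22.7%, and the top 10%, 222 cells, held 83.5%. The highest Combo cell had 43, and 103 cells had 10 or more. At 5000 UMIs per cell the variance of the Il24 count was 1.41 times its mean in the Olaparib + LLY-283 pool and 1.87 times in the Combo pool. If the same UMIs had fallen on cells at random, 1.39% and 10.9% of cells would have carried one, more than the 1.18% and 7.77% seen over 10 thinnings. Without the 1% of cells with the most Il24 UMIs, the level was 1.06 CPM and 20.0 CPM. These cells were picked by Il24 itself. They were 94 of the 201 carrying cells of the Olaparib + LLY-283 pool, but 23 of 583 in Combo. The parts held by the top cells therefore follow from the share of cells with any Il24 UMI, and they do not compare clumping between the libraries.

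**Figure D1:**
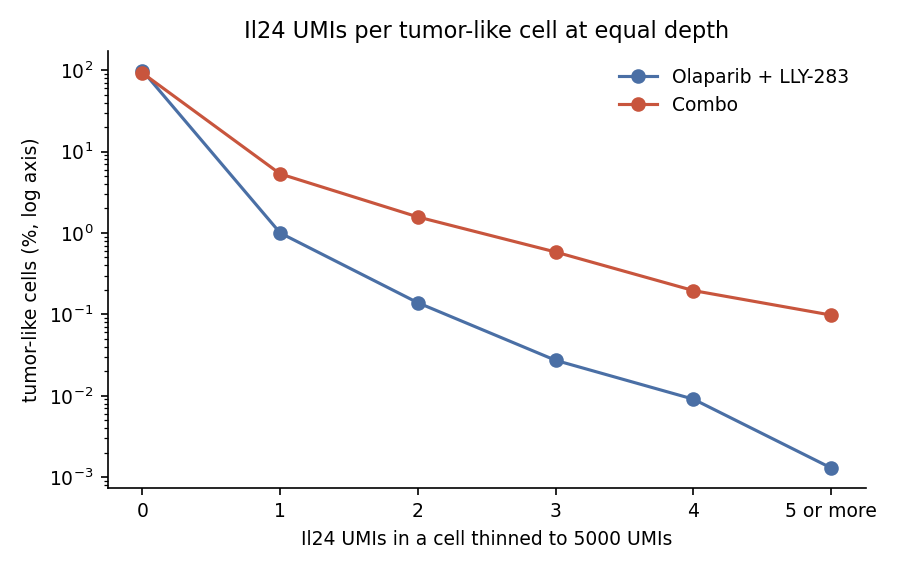
Share of tumor-like cells (%, log axis) by their number of Il24 UMIs after thinning to 5000 UMIs, as the mean of 10 thinnings, with 1 line per library (7711 and 2143 cells). The Combo line lies above the Olaparib + LLY-283 line at every number of UMIs from 1 upward, and both lines fall with each further UMI.

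Within the tumor-like cells, Il24 differed between clusters, which were formed without the genes of the IL-20 family. In the Olaparib + LLY-283 pool the highest level was in cluster 7, led by Pgf, Adm and Hilpda, with 109 UMIs or 15.3 CPM [12.5 to 18.4]. Clusters 1, 3 and 6 of that library were low, at 0.780, 0.812 and 1.53 CPM. In the Combo pool the highest level was in cluster 10, led by Thsd7a, Serpinb9b and Hgf, with 1664 UMIs or 49.5 CPM [47.2 to 52.0]. Clusters 5 and 6 followed, at 41.2 CPM [34.7 to 48.6] and 31.9 CPM [29.3 to 34.7]. The interval of cluster 5 overlapped narrowly with that of each neighbor in this order. Its 140 Combo UMIs lay in 18 of 106 cells, and the spread between cells is not in the interval. Cluster 6 was led by histone genes and cluster 5 by Dusp4, Klk10 and Cryab. Clusters 1 and 3 were lowest in that library too, at 1.99 and 2.68 CPM.

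The Combo value was higher in each of the 10 tumor-like clusters with cells of both libraries. The ratio of Combo to Olaparib + LLY-283 was smallest in cluster 7, at 1.41 [1.11 to 1.80], and largest in cluster 6, at 20.9 [13.9 to 32.9]. In cluster 10 it was 6.53 [4.41 to 10.1], and in cluster 5 it was 10.1 [7.09 to 14.8]. Cluster 17, led by Tnfrsf11b, had 0 Il24 UMIs in the Olaparib + LLY-283 pool and 68 in Combo, which is at least 3.76-fold higher against a floor of 3 counts per library. Left out were 23 cells of cluster 26, which held no Combo cell and no Il24 UMI. At 5000 UMIs per cell, 15.1% [12.3 to 18.3] of the Combo cells of cluster 10 carried Il24, against 2.65% [1.05 to 5.46] of its Olaparib + LLY-283 cells. In cluster 7 the shares were 6.42% [3.70 to 10.2] and 5.09% [3.48 to 7.17], with overlapping intervals. Without cluster 10, the levels over all other tumor-like cells were 2.85 and 16.1 CPM.

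**Figure D2:**
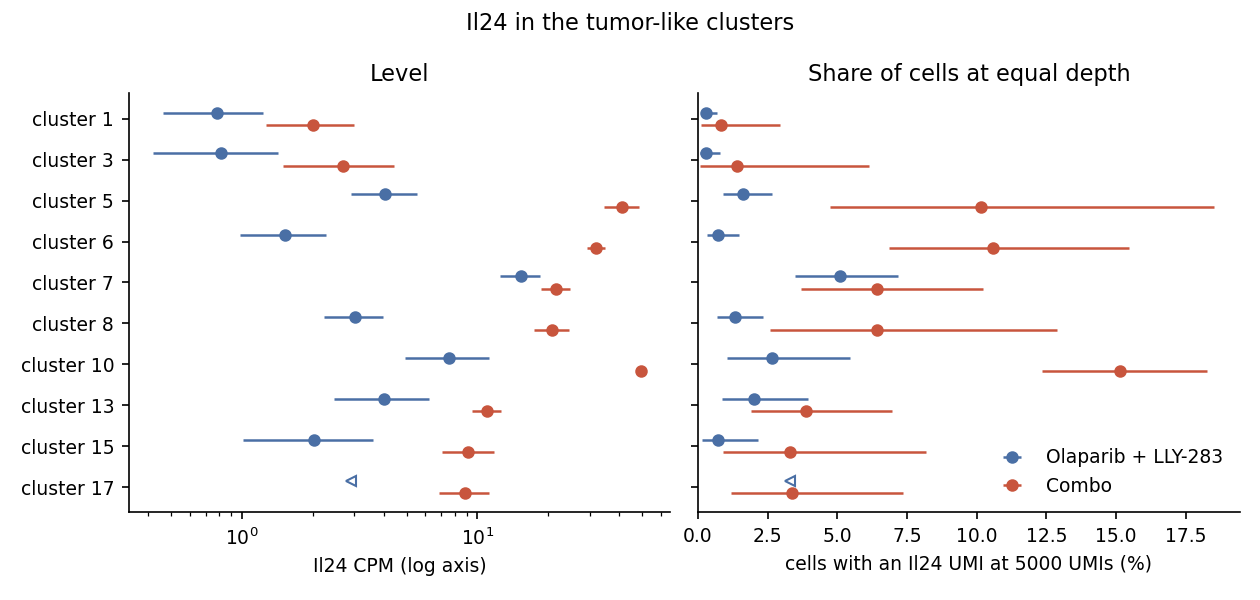
Il24 in the 10 tumor-like clusters with cells of both libraries, as CPM (left, log axis) and as the share of cells with an Il24 UMI at 5000 UMIs per cell (right, %). Points are single libraries with exact 95% counting intervals, and open triangles mark the upper limit where no UMI was counted. The Combo points lie to the right in every cluster on the left, with the smallest gap in cluster 7.

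Other keratin-rich clusters were set apart from the tumor-like cells. Clusters 9 and 14 had few UMIs per cell and held 3 Il24 UMIs in the Olaparib + LLY-283 pool and 141 in Combo (35.0 CPM [29.4 to 41.2]). Cluster 2, in which Omd, Mgp, Pdgfrb and Ogn led, held 13 and 69 UMIs, or 1.26 and 3.61 CPM. Its Combo level was thus below the 25.5 CPM of the tumor-like cells.

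Outside the keratin-rich clusters, Il24 was at 0 or 1 UMI in every class of the Olaparib + LLY-283 pool. A count of 0 in its 610 neutrophil-like cells allows a level of up to 7.11 CPM. In the Combo pool, macrophage-like cells held 93 UMIs in 26 of 769 cells, or 8.70 CPM [7.03 to 10.7]. CAF-like cells held 22, of which 1 cell had 17. Neutrophil-like cells held 7, each in a different cell, and T-like cells held 6 in 3 of 62 cells. No UMI was counted in the endothelial-like or osteoclast-like cells of that library.

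Il24 was set against Krt8 and Krt18, the keratins that mark the tumor cells, within each class. Tumor-like cells of the Combo pool had 2.85 Il24 UMIs per 100 keratin UMIs [2.75 to 2.96]. Macrophage-like cells had 3.42 [2.75 to 4.21], and 22 of the 26 that carried Il24 also carried keratin. A single macrophage-like cell had 26 of the 93 UMIs, and without it the value was 2.53 [1.95 to 3.22]. Both intervals overlapped that of the tumor-like cells. CAF-like cells had 4.04 [2.51 to 6.19], neutrophil-like cells 1.58 [0.632 to 3.28] and T-like cells 9.09 [3.22 to 20.9], the last from 6 UMIs. In cluster 2 the value was 0.535 [0.416 to 0.678], below that of the tumor-like cells. In the Olaparib + LLY-283 pool, tumor-like cells had 0.331 [0.295 to 0.370].

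**Figure D3:**
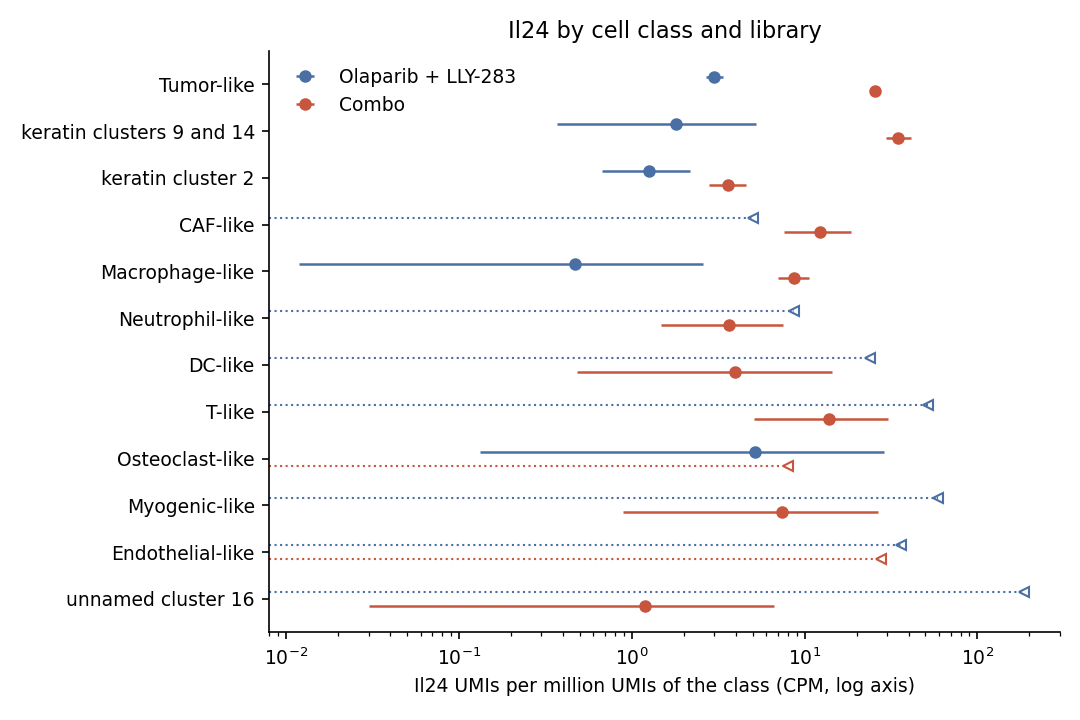
Il24 level by cell class and library, in CPM on a log axis. Points are single libraries with exact 95% Poisson intervals, and open triangles on dotted lines mark the upper limit of that interval where no UMI was counted. The tumor-like cells and keratin clusters 9 and 14 of the Combo pool have the highest levels, at 25.5 and 35.0 CPM, and classes with few UMIs have wide limits.

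The receptor chains had few UMIs or none in each class, and only the deep classes limit their level closely. Il22ra1, the ligand-binding chain shared by IL-20, IL-22 and IL-24, had 0 UMIs in the 16115 and 7542 cells of the files. In tumor-like cells this allows a level of up to 0.0292 CPM in the Olaparib + LLY-283 pool and 0.0252 CPM in Combo. In the shallow classes a count of 0 says little: it allows up to 42.0 CPM in T-like and 29.5 CPM in endothelial-like cells of the Olaparib + LLY-283 pool. Il20ra, the chain that pairs with Il20rb in the receptor of all 3 subfamily cytokines, had a UMI in 20 cells of each library. Il20rb, the chain common to both receptor pairs, had a UMI in 52 and 35 cells. No cell had more than 1 UMI of either chain.

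In tumor-like cells, Il20ra had 12 UMIs in the Olaparib + LLY-283 pool, or 0.117 CPM [0.0603 to 0.204], and 9 in Combo, or 0.0757 CPM [0.0346 to 0.144]. Il20rb had 26 UMIs, or 0.253 CPM [0.165 to 0.371], and 18 UMIs, or 0.151 CPM [0.0897 to 0.239]. The intervals of the libraries overlapped for both chains, and a difference was not detectable at this depth. The unthinned share of tumor-like cells with Il20rb was 0.278% and 0.812%, against 0.209% and 0.390% of macrophage-like cells. At 1000 UMIs per cell it was 0.0217% [0.00265 to 0.0779] and 0.0126% [up to 0.193] in tumor-like cells, and 0.0657% [up to 0.600] and 0.0155% [up to 0.533] in macrophage-like cells, the last pair from 2 and 3 UMIs. These intervals overlapped, so the classes cannot be ordered, and Il20rb in tumor-like cells was not detectably above a class that is not epithelial. For Il20ra the shares were 0.00865% and 0.00765% in tumor-like cells, and 0% and 0.00125% in macrophage-like cells, from 12, 9, 0 and 1 UMIs.

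Among clustered cells, Il20ra outside the tumor-like cells was found only in Combo. There it had 7 UMIs in cells of cluster 2, 2 in CAF-like cells, 1 in macrophage-like cells and 1 in clusters 9 and 14. The 7 of cluster 2 were among 19118342 UMIs of 488 cells, against 9 among 118942652 UMIs of 2217 tumor-like cells. Per UMI, Il20ra was thus higher in cluster 2 than in tumor-like cells of that library, from few counts. In the Olaparib + LLY-283 pool, cluster 2 held none among 10277741 UMIs. In the Olaparib + LLY-283 pool the clustered cells held 12 of the 20 Il20ra UMIs and 37 of the 52 Il20rb UMIs. The rest were in cells left out as doublets or by the filters, and they have no class here. Il20rb was scattered over tumor-like, cluster 2, macrophage-like, neutrophil-like, CAF-like and endothelial-like cells and the unnamed cluster 16, with at most 7 UMIs in any class other than tumor-like. The 1 Il20rb UMI in endothelial-like cells of Combo is 7.48 CPM [0.189 to 41.7] in a class of 15 cells. No cell of either file held both chains of a pair, Il20ra with Il20rb or Il22ra1 with Il20rb. Il24 and Il20rb were found together in 1 and 7 tumor-like cells, and Il24 and Il20ra in 2 and 2.

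Of the other ligands of the list, Il20 had 0 UMIs in tumor-like cells of both libraries, and so had Il22, Ifnl2 and Ifnl3. Il19 had 7 UMIs in the Olaparib + LLY-283 pool and 22 in Combo, or 0.0681 and 0.185 CPM, with a ratio of 1.12 to 7.53 by its counting interval. Il10 had 6 and 12. Il22, a cytokine of activated lymphocytes, was counted only in 1 T-like cell of the Combo pool, with 3 UMIs. Il10, which restrains inflammation, had 21 and 44 UMIs in macrophage-like cells.

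Among the related chains, Il10rb, which serves the receptors of IL-10, IL-22 and the lambda interferons and not that of IL-24, was present in all classes. It had 1302 UMIs in tumor-like cells of the Olaparib + LLY-283 pool and 1576 in Combo, or 12.7 and 13.3 CPM. Il10ra, the ligand-binding chain for IL-10, had 42 and 108 UMIs in tumor-like cells, or 0.409 and 0.908 CPM, against 57.9 and 50.7 CPM in macrophage-like cells. The summed level of 12 macrophage markers in tumor-like cells was 67.4 and 88.8 CPM, with none of the 12 at 0 in either library. Its part in the Il10ra difference was not tested. Ifnlr1, of the lambda interferon receptor, had 1 UMI in each library, and the decoy receptor Il22ra2 had 0.

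**Figure D4:**
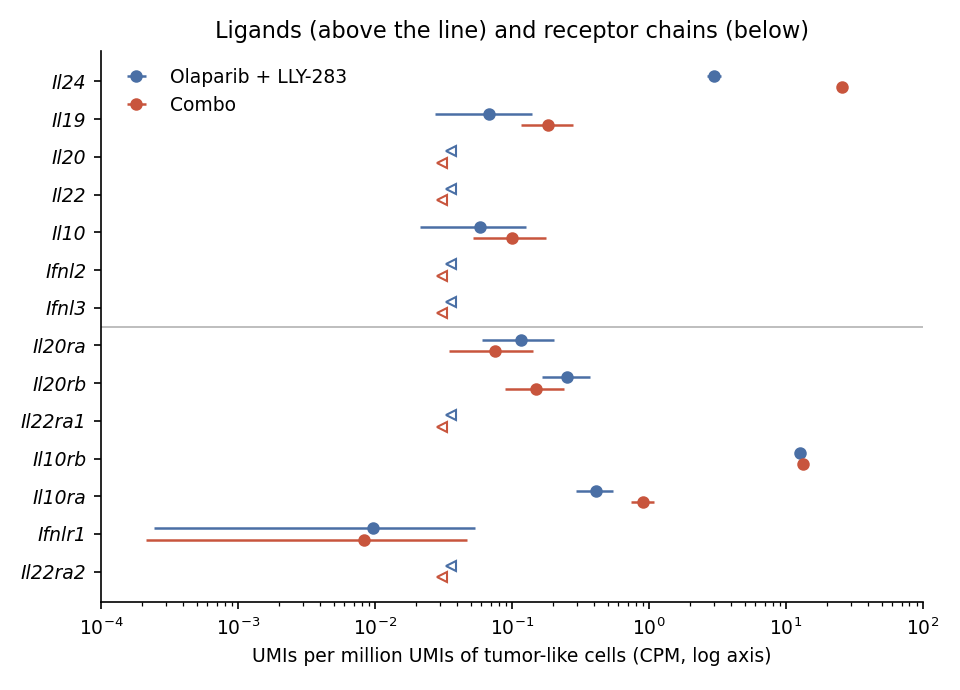
UMIs of the IL-20 family ligands (above the line) and receptor chains (below the line) in tumor-like cells, in CPM on a log axis; points are single libraries with exact 95% Poisson intervals, and open triangles mark the upper limit at 0 UMIs. Values are 3′ tag counts and are not scaled by gene length, so they are read between libraries within a gene. Il24 is the ligand with a wide gap between the libraries, and Il22ra1 has no UMI in either.

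The neighbors of Il24 on chromosome 1 were compared within 200 kb. Of the cytokine genes in the row, Il20 had 0 UMIs and Il19 and Il10 the few given above. Mapkapk2, a stress kinase next to Il10, was at 48.3 CPM in the Olaparib + LLY-283 pool and 50.5 CPM in Combo, a log2 ratio of 0.06. Yod1, a deubiquitinase on the other side, was at 5.89 and 6.95 CPM, a log2 ratio of 0.24. Both were thus close to the median log2 ratio of 0.09 over all genes.

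The kinases, STAT factors and feedback genes downstream of the receptors were compared between the libraries in tumor-like cells. Of 13 such JAK-STAT genes, 0 were over 1.5-fold in either direction, where 6.23% of all genes were higher and 2.01% lower, and their median log2 ratio was 0.16. Jak1, the kinase of the IL-20 receptors, was at 145 and 158 CPM in the Olaparib + LLY-283 and Combo pools. Stat3, their main STAT factor, was at 48.8 and 63.7 CPM, and Socs3, a feedback inhibitor that STAT3 induces, at 53.7 and 54.2 CPM. Over the ligand, receptor and JAK-STAT lists together, Il24 and Il10ra were the 2 genes past 1.5-fold of those with at least 100 UMIs.

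Of 12 genes that IL-20 family cytokines are known to act on in epidermis, 5 had at least 100 UMIs, and 3 were over 1.5-fold higher in Combo and 1 lower. Of all 13459 genes, 6.23% were higher and 2.01% lower. The 5 genes are few, and a response to the cytokine was not tested. S100a8 was at 52.2 CPM in the Olaparib + LLY-283 pool and 98.9 in Combo, S100a9 at 74.8 and 155, and the iron carrier Lcn2 at 1.86 and 3.01, while the keratin Krt16 was at 2.67 and 1.37. S100a8 and S100a9 are also markers of neutrophils. The summed level of 10 neutrophil markers in tumor-like cells was 144 CPM in the Olaparib + LLY-283 pool and 295 CPM in Combo, with none of the 10 at 0. S100a8 and S100a9 are among these 10 and make up most of the sum, so it largely restates their own levels. Of the other markers, G0s2 was the highest, at 6.48 and 17.4 CPM. Clec4d was at 3.39 and 6.29 CPM, Hdc at 1.75 and 5.31, and Il1r2 at 1.03 and 3.17. Cxcr2 was at 0.759 and 2.06 CPM, Csf3r at 0.739 and 2.68, and Cd33 at 0.729 and 1.95. Only Retnlg was not higher in Combo, at 2.31 and 2.24 CPM. The part of neutrophil RNA in the S100a8 and S100a9 difference was not tested.

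Within each library, tumor-like cells with an Il24 UMI at 5000 UMIs per cell (carriers) were compared with those without. Over 10 thinnings, a mean of 90.7 cells of the Olaparib + LLY-283 pool were carriers, and a mean of 166.5 of the Combo pool. Of 9539 genes with a mean of at least 0.02 UMIs per cell in both libraries, 29 (0.304%) were over 1.5-fold higher in carriers of both libraries and 124 (1.3%) were lower. The median log2 ratio over these genes was -0.05 and -0.02. In simulated counts, 137 of 9339 genes made without any change passed this rule by counting noise alone, a like share. The simulation drew each count once, while the real ratios average 10 thinnings, so the noise of the real ratios may differ. Most of the 153 genes could be chance calls, their number is no result, and a gene is described by its counting intervals and UMIs. The highest and lowest genes were picked by these same ratios. Their intervals therefore tend to lie away from 1 by the choice itself, and they are no test.

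Klk8, a secreted serine protease known from the epidermis, led the genes that were higher. It had 11.8 UMIs per 100 carriers and 3.56 per 100 other cells in the Olaparib + LLY-283 pool, a ratio of 3.31 [1.62 to 6.07]. In the Combo pool the values were 20.9 and 5.20, a ratio of 4.02 [2.66 to 5.96]. Upp1, a uridine phosphorylase of pyrimidine salvage, had 55.6 against 19.0 UMIs per 100 cells, a ratio of 2.92 [2.16 to 3.86], and in Combo 64.1 against 24.7, a ratio of 2.59 [2.08 to 3.21]. All intervals of these genes lay above 1. Both were picked for high ratios in both libraries, so like ratios between the libraries follow in part from that choice.

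Pthlh, the parathyroid hormone-related protein that tumors secrete, had ratios of 2.48 [1.54 to 3.79] in the Olaparib + LLY-283 pool and 3.47 [2.60 to 4.57] in Combo. Ratios of Itgb7, an integrin subunit known from lymphocytes, were 2.89 [1.42 to 5.25] and 3.65 [2.58 to 5.09]. For Itga6, an integrin subunit that binds laminin, they were 2.28 [1.22 to 3.91] and 2.07 [1.23 to 3.32]. Serpinb9b, a protease inhibitor gene, had 2.76 [1.14 to 5.65] and 4.46 [3.19 to 6.17], and it was also among the leading genes of cluster 10, where Combo Il24 was highest. In the Olaparib + LLY-283 pool the Serpinb9b value came from 7.5 UMIs in carriers per thinning. Hspa1a, an inducible heat shock protein, had 4.13 [1.80 to 8.21] and 2.56 [1.08 to 5.40], from 8.4 and 8.7 UMIs in carriers per thinning. Cxcl3, a chemokine that draws neutrophils, had 2.92 [1.67 to 4.77] and 1.90 [1.27 to 2.77].

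The tumor keratin Krt18 was at 90.1 UMIs per 100 carriers against 52.3 per 100 other cells in the Olaparib + LLY-283 pool, and at 92.6 against 38.9 in Combo. Its ratios were 1.72 [1.37 to 2.14] and 2.38 [1.99 to 2.83]. Samd12, Dock9, M1ap, Kitl, Tmcc3 and Dusp9 completed the 15 highest, with ratios between 1.86 and 2.77 in both libraries. Samd12 and Tmcc3 had only 7.8 and 8.7 UMIs in carriers per thinning in the Olaparib + LLY-283 pool. Of the 15, which were picked for high ratios in these same counts, the interval lay above 1 for 13 in the Olaparib + LLY-283 pool and for 15 in Combo. The exceptions were Tmcc3 at 1.97 [0.882 to 3.83] and Dusp9 at 1.86 [0.907 to 3.39].

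Carriers lie unevenly over the clusters, so the other cells were also weighted to the cluster mix of the carriers, a comparison added after the data had been seen. It left 16 genes higher, of which 14 were among the 29, and 43 lower, of which 38 were among the 124. Of the 15 highest and 10 lowest genes, Kitl, Krt18, Tmcc3 and Ogn were then no longer past 1.5-fold in both libraries. Klk8, Upp1, Itgb7, Pthlh and Dock9 stayed past it under this and all other settings that kept them above the filter. So did Mgp and Itgb8 of the lowest genes.

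Of the 10 genes with the lowest ratios, Mgp and Ogn had the most UMIs. Mgp, the matrix Gla protein that restrains calcification, had 39.4 UMIs per 100 carriers against 123 per 100 other cells in the Olaparib + LLY-283 pool, a ratio of 0.320 [0.224 to 0.444]. In Combo it had 15.3 against 61.4, a ratio of 0.248 [0.161 to 0.367]. Ogn, a small proteoglycan of connective tissue, had ratios of 0.468 [0.377 to 0.573] and 0.396 [0.336 to 0.463], and it was not past 1.5-fold in both libraries once the other cells were weighted by cluster. Itgb8, an integrin subunit that activates latent TGF-β, had 0.251 [0.0351 to 0.864] and 0.202 [0.0623 to 0.490]. The immediate early factor Egr3 had 0.299 [0.0470 to 0.982] and 0.162 [0.0164 to 0.636].

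Fewer than 10 UMIs per thinning were in the carriers for Itgb8 and Egr3, as they were for the other 6 of the 10 lowest, Slc6a2, Megf10, Nrep, 9930111J21Rik2, Col4a5 and Tcf7. The intervals of these 6 in the Olaparib + LLY-283 pool all reached above 1. Among the 10, which were picked for low ratios in these same counts, the interval lay below 1 for 4 genes in that library and for 8 in Combo. The summed level of 10 fibroblast markers per 100 cells was 648 in carriers and 1031 in other cells of the Olaparib + LLY-283 pool, and 689 and 1086 in Combo. Over all tumor-like cells, most UMIs of these markers were of the collagen chains Col1a2 and Col3a1, so the sum mainly reflects those chains. Egr3 and Mgp are also among the leading genes of cluster 1, where Il24 was low in both libraries.

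**Figure D5:**
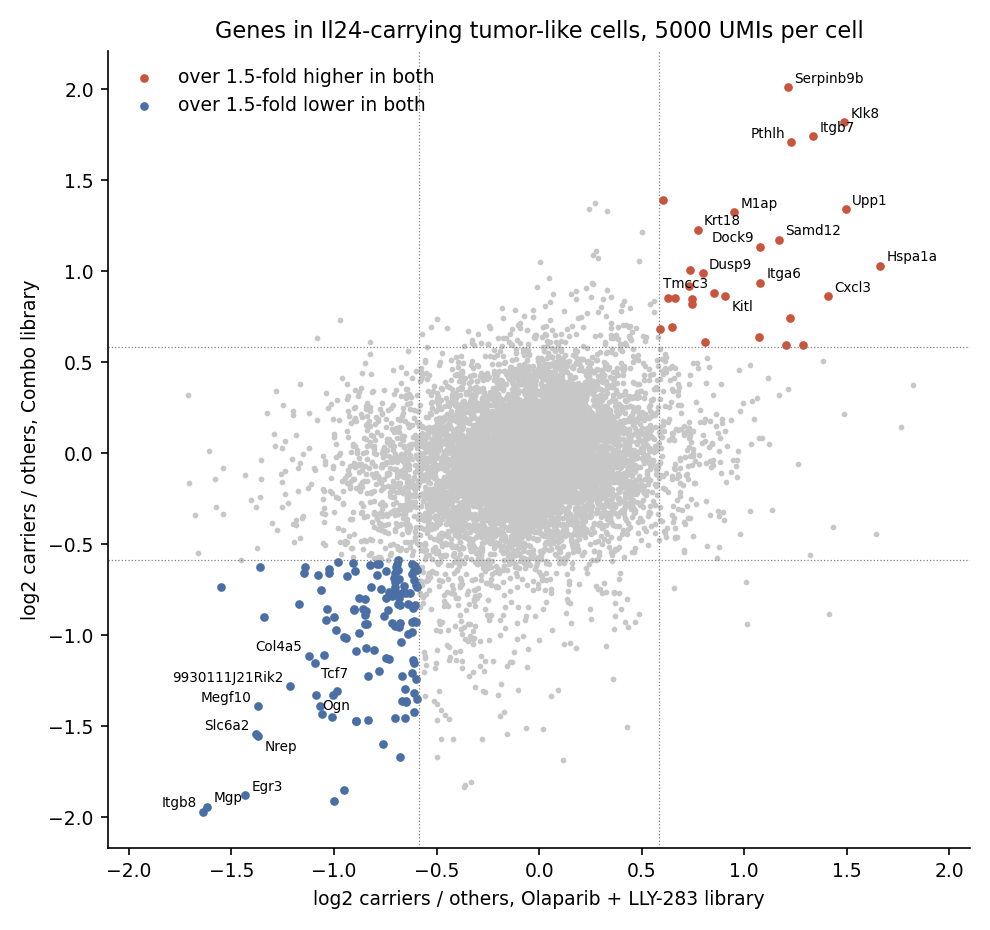
Ratio of mean UMIs in Il24-carrying to other tumor-like cells (log2, pseudocount 0.01) for 9539 genes at 5000 UMIs per cell, with the Olaparib + LLY-283 pool on the x axis and Combo on the y axis. Dotted lines mark 1.5-fold, and the 29 genes higher and 124 lower in both libraries are colored, with the 15 highest and 10 lowest named.

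Gene lists were read by their counts and medians beside those of all genes. Of all 9539 genes, 0.304% were higher and 1.3% lower in carriers of both libraries, and the median log2 ratios were -0.05 and -0.02. Lists this short hold too few genes to compare with these shares, so their counts of calls are no result. Of 10 NF-κB targets above the filter, 1 was higher in carriers of both libraries, the neutrophil chemokine Cxcl2. It had 76.4 UMIs per 100 carriers against 49.1 per 100 other cells in the Olaparib + LLY-283 pool, and 172 against 94.6 in Combo, with ratios of 1.56 [1.21 to 1.97] and 1.82 [1.60 to 2.06]. The list's median log2 ratio was 0.47 in the Olaparib + LLY-283 pool and 0.01 in Combo. Cxcl1 had ratios of 1.38 [1.11 to 1.70] and 1.45 [1.27 to 1.66], and Cxcl5 had 1.89 [1.48 to 2.39] and 1.09 [0.877 to 1.34].

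Hypoxia genes gave a like contrast between libraries, with 0 of 10 past 1.5-fold in both and a median log2 ratio of 0.43 in the Olaparib + LLY-283 pool and 0.01 in Combo. Adm, the vasodilator peptide adrenomedullin, had 343 UMIs per 100 carriers against 96.2 in the first library, a ratio of 3.56 [3.17 to 3.99], and 202 against 155 in the second, a ratio of 1.299 [1.16 to 1.45]. For the glucose transporter Slc2a1 the ratios were 1.67 [1.43 to 1.93] and 1.02 [0.898 to 1.16], and for Ndrg1 1.87 [1.58 to 2.19] and 1.14 [0.983 to 1.32]. Adm is a leading gene of cluster 7, which held 109 of the 309 Il24 UMIs of the Olaparib + LLY-283 pool.

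AP-1 and immediate early genes were 12, with 0 higher and 1 lower, and medians of -0.16 and -0.28. Fos had 398 UMIs per 100 carriers against 638 per 100 other cells in the Olaparib + LLY-283 pool, and 282 against 489 in Combo. Its ratios were 0.623 [0.560 to 0.691] and 0.576 [0.524 to 0.632], while Atf3, a stress-induced factor, had 1.36 [0.995 to 1.82] and 1.64 [1.29 to 2.06] and Fosb 0.717 [0.563 to 0.901] and 0.699 [0.572 to 0.847]. Of 10 interferon response genes 0 were higher and 1, Ifit1, was lower, with medians of -0.26 and -0.66. Ifit1 had ratios of 0.640 [0.298 to 1.203] and 0.366 [0.199 to 0.620], so that the interval of the Olaparib + LLY-283 pool reached above 1.

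Of 9 mesenchymal genes 1 was lower, the collagen chain Col1a1, with ratios of 0.626 [0.507 to 0.764] and 0.485 [0.412 to 0.568]. Fn1, or fibronectin, had 0.730 [0.646 to 0.821] and 0.563 [0.508 to 0.622], and the medians of the list were -0.33 and -0.35. In the wound edge and EGF ligand list 0 of 13 were past the threshold in both libraries, with medians of 0.40 and 0.27. There the plasminogen activator Plau had 2.02 [1.57 to 2.56] and 1.22 [0.993 to 1.48], and the matrix glycoprotein Thbs1 0.698 [0.553 to 0.871] and 0.385 [0.301 to 0.485]. Of 3 tumor keratins Krt18 was the 1 past the threshold. Krt8 had 1.28 [1.16 to 1.40] and 1.61 [1.51 to 1.72], and Krt7 had 3.33 [1.43 to 6.63] and 0.667 [0.133 to 2.06].

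Lists of the cell cycle had 0 of 10 S phase genes and 0 of 10 G2 and mitosis genes past 1.5-fold in both libraries. Medians were 0.03 and 0.10 for S phase, and -0.12 and -0.01 for G2 and mitosis. Of 11 p53 targets 1 was lower, Trp53inp1, with 0.485 [0.0252 to 2.30] and 0.552 [0.123 to 1.61]. The ATF4 and unfolded protein response list had 0 of 11, with medians of 0.08 and -0.08, and cytokine and growth factor receptors had 0 of 9, with medians of -0.41 and -0.29. Of the IL-20 response genes, S100a8 and S100a9 were above the filter, with ratios of 1.09 and 1.13 in the Olaparib + LLY-283 pool and 0.936 and 0.912 in Combo.

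Of 10 JAK-STAT genes above the filter, 0 were past 1.5-fold in carriers of both libraries, where 0.304% of all genes were higher and 1.3% lower, so the count says nothing particular of them. Their values had median log2 ratios of -0.10 and -0.09. Socs3 had ratios of 1.01 [0.654 to 1.501] and 1.27 [0.95003 to 1.67]. The chain Il10rb had 0.670 [0.182 to 1.73] and 0.813 [0.371 to 1.57], and no other chain or ligand was above the filter.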

How the data were processed

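Single-cell RNA sequencing (10x Genomics 3′ chemistry) of EMT6 tumors was read from 2 libraries, 1 per group. The authors deposited UMI counts per gene and cell without normalization. The submitters' processing notes name bcl2fastq 5.0.1, Cell Ranger and Seurat 4.1.0 with mm10, and the matrix header names Cell Ranger 6.1.2. All 55450 gene identifiers are in GENCODE M21. The receptor chains, gene lists and markers were chosen with earlier results of these data known.

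A cell entered with 200 or more genes and a mitochondrial share of UMIs below 20%. Doublet calls came from Scrublet (scanpy 1.11.5, expected rate 0.8% per 1000 cells, log-transformed counts, since the untransformed run called 0). With 2000 variable genes (IL-20 family and JAK-STAT genes left out), 30 principal components and 20 neighbors, Leiden clustering (leidenalg 0.10.2, igraph 0.11.9) was run at resolution 1.3. A class name required a mean log2 fold of at least 1 over its markers, at least 3 markers over 2-fold higher and no other class with more markers among the 10 leading genes. Tumor-like clusters had summed Krt8 and Krt18 levels over 2 times the median of clusters with another name. Both naming rules were set with the data in view, and rebuilt names may differ from the study's.

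UMIs were summed per class as CPM with exact Poisson intervals, shares have Clopper-Pearson intervals, ratios exact conditional intervals, all at 95%. A count of 0 is read as allowing 3. Ratios between libraries had 0.5 UMIs added for calls, and needed 100 UMIs. Shares at equal depth are expectations over all thinnings to 1000 UMIs (classes) or 5000 (tumor-like cells). Genes in Il24 carriers were averaged over 10 random thinnings with a pseudocount of 0.01 UMIs per cell and called past 1.5-fold in both libraries. The named genes are Il24 and its receptor chains, the ligand and receptor lists, the 15 highest and 10 lowest in carriers and 3 per other list; other genes named were chosen after their values were seen. Tested on simulated data, the carrier comparison recovered all genes with the largest fold and most with smaller folds, but it also called unchanged genes at about the share called in the real data. The simulated counts were drawn once for independent cells and were not averaged over thinnings. Scripts ran under Python 3.11.15 with scipy 1.17.1, numpy 2.4.6, matplotlib 3.10.9 and pandas 2.3.3. Alternatives changed the cell filter, doublets, resolution, classes, thinning, filter and pseudocount.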

Additional observations from a re-analysis of the deposited data

Results flagged for a closer look

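Il24 UMIs were also counted in cells that no comparison between the libraries used, above the limit that a count of 0 allows. Cells called as doublets held 91 Il24 UMIs in the Olaparib + LLY-283 pool (3.19 CPM [2.57 to 3.92], 2364 cells) and 32 in Combo (16.02 CPM [10.96 to 22.6], 47 cells). Of the 1586 Combo cells with 20% or more mitochondrial UMIs or under 200 genes, 10 held 1 Il24 UMI each (7.18 CPM [3.44 to 13.2]). In the keratin-rich clusters set apart from the tumor-like cells, Combo cells of clusters 9 and 14 were at 35.0 CPM, and cluster 2 was at 1.26 CPM in the Olaparib + LLY-283 pool and 3.61 CPM in Combo.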

How the results depend on the processing

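The log2 ratio of Il24 between the libraries was 3.09 and lay between 2.97 and 3.08 with a mitochondrial limit of 10%, doublets kept or resolution 0.8, and it was 3.26 with classes by the marker UMIs of each cell. Among settings added after the data had been seen, it was 3.01 with the further keratin clusters counted as tumor-like and 2.49 without cluster 10. It was 4.24 without the 1% of cells with most Il24 UMIs. That cut is made on Il24 itself and removes 94 of 201 carrying cells of the Olaparib + LLY-283 pool but 23 of 583 in Combo. The difference in the share of carriers was 6.62 percentage points, and 10.5 with classes by marker UMIs, 4.62 at 3000 UMIs, 24.1 without thinning and 3.88 without cluster 10. Leaving out cluster 10 or the cell below, and weighting by cluster, were also added then. Il24 per 100 keratin UMIs in macrophage-like cells was 2.53 without the cell with most Il24. The share of tumor-like cells with Il20rb, 0.0199% over both libraries, was 0.380% without thinning. With no filter on UMIs, 6 in place of 2 family and signalling genes passed 1.5-fold.

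Genes higher and lower in carriers, 29 and 124 (153 in all), numbered 45 and 186 (231) among cells with middle total UMIs, 102 and 378 (480) with at least 2 Il24 UMIs, 7 and 44 (51) with a mean of at least 0.1 UMIs, 6 and 17 (23) with a pseudocount of 0.1, and 16 and 43 (59) with the other cells weighted by cluster. Of 285 values of single genes under the alternatives, 258 stayed on their side of the threshold or within their interval, 27 fell short of the threshold and 0 reversed. Most of these values are of the 15 highest and 10 lowest genes, picked by their ratios and recomputed on largely the same cells. The rest are levels of the receptor chains, and Il22ra1, at 0 UMIs, could not move. Few reversals follow from this choice, and the tally is no test of the genes. No paired analysis was possible because each group has 1 library. In sparse thinned counts, genes at a few UMIs in carriers cannot be ranked, and the depth of non-tumor classes in the Olaparib + LLY-283 pool limits what an Il24 count of 0 shows.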
